A study of Rattus norvegicus with 6 samples.

Results

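The genes of the MHC class II presentation pathway were followed through the cell classes of the rat ileum. They were the 4 classical chain genes RT1-Ba, RT1-Bb, RT1-Da and RT1-Db1, the peptide loading genes RT1-DMa and RT1-DMb, the invariant chain gene Cd74 and the transactivator gene Ciita. They were taken by symbol from the count tables, 8 of 28282 symbols, and all 8 were found. Nuclei came from the ileum of wild-type male Sprague-Dawley rats aged 6 weeks, an outbred stock, kept for 7 days of acclimatization, with 1 library per rat and 3 rats per group. Rats of the SAP group received sodium taurocholate (3%, 0.1 mL per 100 g of body weight) through the pancreatic duct, a model of severe acute pancreatitis, and the CON group had a sham laparotomy. Ileum was collected 24 h later in both groups, away from Peyer's patches. All values below are unique molecular identifiers (UMIs) of nuclear RNA, so a lower level may reflect fewer nuclei of a type in a class or less RNA per nucleus, which cannot be told apart.

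Class II molecules carry peptides from the endosomal pathway to CD4+ T cells. An alpha and a beta chain assemble in the endoplasmic reticulum around the invariant chain, which blocks the groove and directs the complex to endosomes, where the DM molecule exchanges the last invariant chain fragment for peptide. Rats have a B locus and a D locus, written RT1-B and RT1-D, which correspond to human HLA-DQ and HLA-DR. Dendritic cells, B cells and macrophages transcribe these genes constitutively, and the small intestinal epithelium transcribes them on its villi, where interferon-gamma and the microbiota raise their level. CIITA does not bind DNA itself. It is recruited to an enhanceosome formed by the RFX complex on the X box and NF-Y on the Y box of class II promoters.

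The promoters are shown because class II promoters are known for these boxes, through which CIITA acts. RefSeq promoters of 6 of the 8 genes were given (assembly GRCr8), and 5 are printed, each as the 150 bases before the start, 5′ to 3′ on the gene's strand, with the Y box letters TGATTGG and the X box core (GNNAC followed directly by NGATG) in capitals. The windows are chr20:4515265-4515414 (+) for RT1-Da, chr20:4560163-4560312 (-) for RT1-Db1, chr20:4576907-4577056 (+) for RT1-Ba, chr20:4604119-4604268 (-) for RT1-Bb and chr20:4712336-4712485 (-) for RT1-DMa.
RT1-Da: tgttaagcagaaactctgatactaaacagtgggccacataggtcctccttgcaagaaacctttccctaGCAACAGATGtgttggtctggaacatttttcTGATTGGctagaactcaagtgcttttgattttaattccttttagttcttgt
RT1-Db1: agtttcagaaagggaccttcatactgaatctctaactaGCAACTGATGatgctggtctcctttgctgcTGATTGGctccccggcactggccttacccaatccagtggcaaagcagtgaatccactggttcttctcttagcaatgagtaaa
RT1-Ba: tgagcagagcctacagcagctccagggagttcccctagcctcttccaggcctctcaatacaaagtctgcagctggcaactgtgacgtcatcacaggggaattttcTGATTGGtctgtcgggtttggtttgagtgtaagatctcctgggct
RT1-Bb: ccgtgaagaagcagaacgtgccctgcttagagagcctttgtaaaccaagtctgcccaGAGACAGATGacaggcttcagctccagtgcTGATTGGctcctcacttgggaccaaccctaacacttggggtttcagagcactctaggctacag
RT1-DMa: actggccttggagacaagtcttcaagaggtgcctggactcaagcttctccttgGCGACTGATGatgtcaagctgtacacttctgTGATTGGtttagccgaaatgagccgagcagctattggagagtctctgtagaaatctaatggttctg

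The Y box letters were found in 5 of the 6 windows, 45 to 82 bases upstream of the start, against 4.67% of 33469 promoters of the same length. The X box core stood further upstream, at 82 to 112 bases, in RT1-Da, RT1-Db1, RT1-Bb and RT1-DMa, and was not found in the window of RT1-Ba. The window of Cd74, which is not printed, held neither motif, which says only that these letters are not in it. Of all promoters, 1.33% held the X box core and 0.120% held both. Both strands were searched, and the motifs do not overlap in these windows. A match to these letters is a description of the sequence and not a measured binding site.

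The study's thresholds of at least 1200 UMIs, at least 500 genes and at most 5% mitochondrial UMIs left 40970 of 90461 barcodes, 3189 to 9246 nuclei per library, with median depths of 1516 to 1889.5 UMIs. Clusters were built without MHC genes and named from marker lists, and 2 of 25 clusters stayed unnamed. Of these, cluster 1 was epithelial and led by Ceacam20, Car4 and Slc26a3, and cluster 12 was not epithelial. The epithelium held 31436 nuclei. CON 2 and SAP 1 were deposited with many barcodes under 1000 UMIs. CON 2 also had the lowest Cd74 level of the 6 rats in the epithelium. Some results, mostly of Cd74, are therefore also given without CON 2, and the others include it. SAP 1 and SAP 2 had the highest median mitochondrial percentages, 1.84% and 1.29% against 0.125% to 0.700% elsewhere, and also the highest Cd74 levels in the epithelium. The labels place all libraries in 1 batch.

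UMIs of Cd74, the most abundant of the 8 genes, were found in every class and not only in those of professional antigen-presenting cells. These counts include free RNA, which is treated below. The Cd74 level in mid-villus-like enterocytes was close to that in macrophage/dendritic-like nuclei. In mid-villus-like nuclei Cd74 stood at 1610, 247 and 1513 CPM (UMIs scaled to a total of 1000000 per class and rat) in CON 1, 2 and 3, and at 3039, 2116 and 1386 CPM in SAP 1, 2 and 3. In macrophage/dendritic-like nuclei the levels were 1290, 903 and 1027 CPM in CON and 2829, 1242 and 1329 CPM in SAP. Averaged over the 6 rats, Cd74 was 1652 ± 917 CPM (SD, n = 6) in mid-villus-like and 1437 ± 702 CPM in macrophage/dendritic-like nuclei. The mid-villus-like level was the higher in 5 of 6 rats, with CON 2 the exception. Villus-tip-like nuclei followed at 1376 ± 628 CPM and B-like nuclei at 1182 ± 371 CPM. At the other end of the order stood crypt-base-like nuclei at 541 ± 359 CPM and the enteric neuron-associated (NAC-like) nuclei at 428 ± 271 CPM. Neighbours in this order mostly differed by less than the spread between rats. Without CON 2 the mid-villus-like mean was 1933 CPM.

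Ciita, which drives the other members, had a different order. It was highest in macrophage/dendritic-like nuclei, at 297, 410 and 501 CPM in CON and 236, 141 and 392 CPM in SAP. B-like nuclei came next at 92.1, 117 and 314 CPM in CON and 201, 94.2 and 313 CPM in SAP, lower than macrophage/dendritic-like nuclei in 6 of 6 rats. Mid-villus-like nuclei had 62.5, 58.6 and 76.1 CPM in CON and 75.5, 103 and 122 CPM in SAP. Villus-tip-like nuclei were lowest of the 19 classes at 26.8 ± 12.0 CPM (SD, n = 6). The ratio of macrophage/dendritic-like to mid-villus-like Ciita was 4.34 ± 2.18 and above 1 in 6 of 6 rats, while for Cd74 the same ratio was above 1 in 1 of 6. The 65 tuft-like and 12 endothelial-like nuclei of SAP 1 held no Ciita UMI, which are too few nuclei to show its absence.

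**Figure D1:**
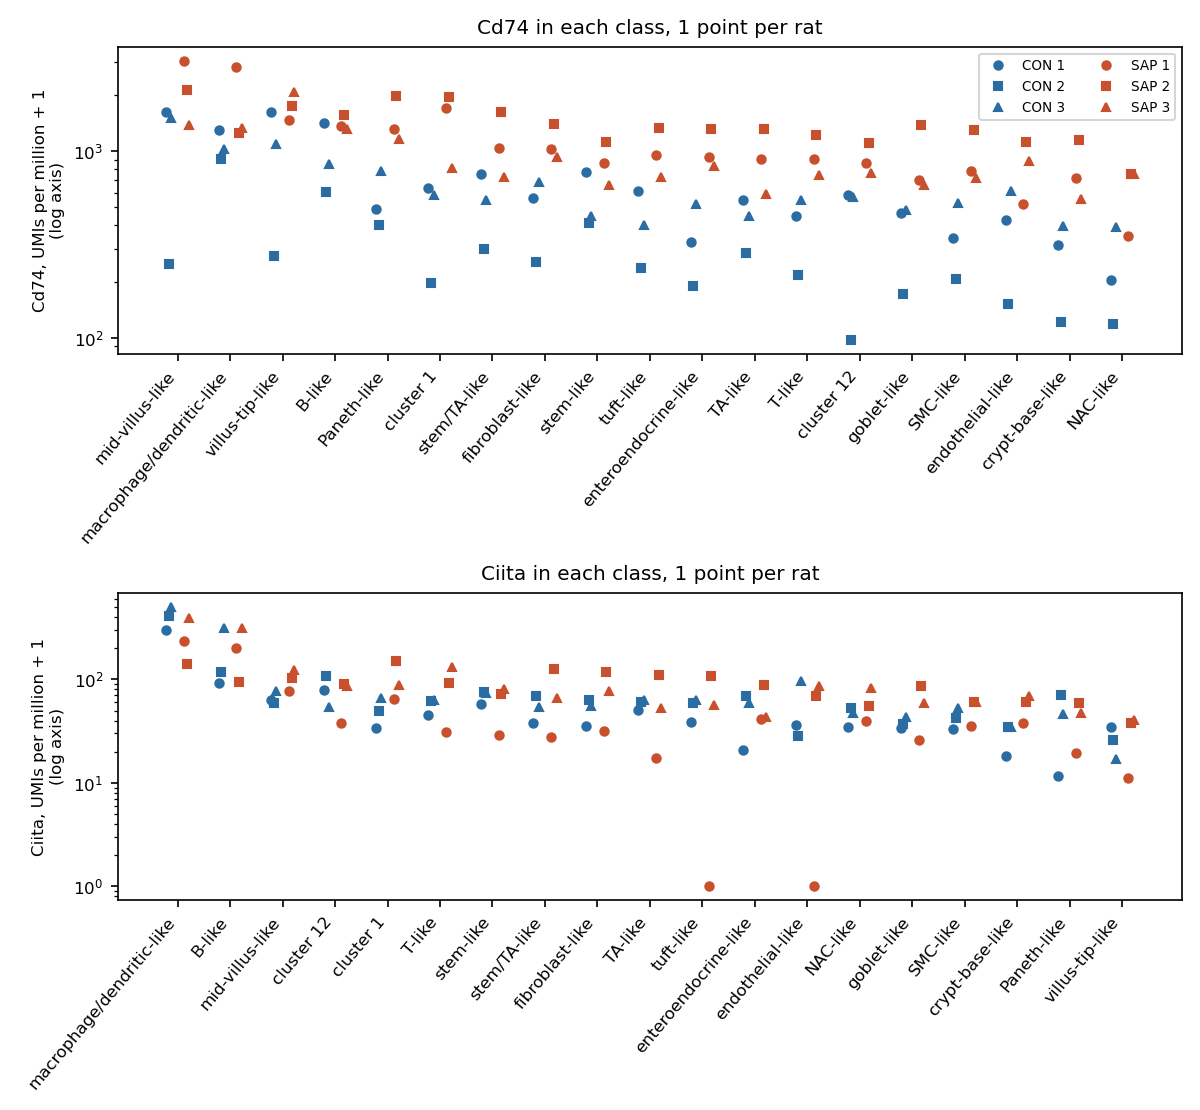
Levels of Cd74 (top) and Ciita (bottom) in each class as CPM plus 1 on a log axis, with 1 point per rat, blue for CON and orange for SAP, and classes ordered by their mean over the 6 rats. Cd74 is spread over all classes with mid-villus-like nuclei first, whereas Ciita is set apart in macrophage/dendritic-like and B-like nuclei.

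Within the epithelium the chain genes and Cd74 were higher in mid-villus-like nuclei than in stem and transit-amplifying nuclei of the crypt. Relative to the joined stem and transit-amplifying (TA) nuclei, mid-villus-like nuclei had 2.14 ± 0.93 times the Cd74 level (SD over 6 rats), 2.57 ± 1.30 times the RT1-Da, 3.55 ± 1.94 times the RT1-Db1 and 3.42 ± 2.03 times the RT1-Bb level. Each ratio was above 1 in 5 of 6 rats and below 1 in CON 2, where the Cd74 ratio was 0.763. The Ciita ratio was 1.55 ± 0.81 and above 1 in 4 of 6 rats. From mid-villus to villus tip the members parted. Cd74 was at 0.937 ± 0.347 of the mid-villus-like level and lower in 3 of 6 rats, but Ciita was at 0.332 ± 0.147 and RT1-DMb at 0.460 ± 0.121, both lower in 6 of 6 rats.

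Paneth-like nuclei, the defensin-secreting cells of the crypt base, held 2.08 ± 0.64 times the Cd74 level of crypt-base-like nuclei, higher in 6 of 6 rats. RT1-Ba, RT1-Da, RT1-Db1, RT1-DMa and RT1-DMb were also higher in 6 of 6 rats, and RT1-Bb in 5 of 6. The Ciita ratio between these classes was 1.03 ± 0.60, higher in 2 of 6. These contrasts between clusters are descriptions over 6 rats without a test, since the classes come from the same nuclei.

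Free RNA released from broken cells enters every droplet, so the level in nuclei that should hold few class II transcripts of their own was used as a reference in each library. Smooth muscle (SMC-like) nuclei had Cd74 at 342, 206 and 524 CPM in CON and 782, 1292 and 719 CPM in SAP. These levels are high for smooth muscle and every SAP rat was above every CON rat. Enterocyte markers in SMC-like nuclei summed to 1147 to 3739 CPM and goblet markers to 3267 to 5734 CPM, so transcripts of the epithelium were present in these nuclei too. Their own SMC markers summed to 9038 to 17185 CPM in CON and 2074 to 5964 CPM in SAP.

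Set against SMC-like nuclei of the same rat, the enterocyte, Paneth-like, B-like and macrophage/dendritic-like classes had the higher Cd74 ratios. The Cd74 ratio was 2.71 ± 1.38 in mid-villus-like (SD, n = 6), 2.37 ± 1.29 in villus-tip-like, 2.24 ± 1.08 in B-like and 1.61 ± 0.19 in Paneth-like nuclei, above 1 in 6 of 6 rats in each. Macrophage/dendritic-like nuclei had a Cd74 ratio of 2.76 ± 1.35, above 1 in 5 of 6, and T-like nuclei 1.09 ± 0.13, also above 1 in 5 of 6. Goblet-like nuclei were at 1.00 ± 0.20 and above 1 in 2 of 6 rats, and crypt-base-like nuclei were at 0.805 ± 0.129 and above 1 in 0 of 6. Cd74 in goblet-like nuclei could not be told apart from the background measured in SMC-like nuclei, and in crypt-base-like nuclei it lay below that level. Against NAC-like nuclei, another reference, the ratios of these 2 classes were 1.62 and 1.32.

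For Ciita the picture narrowed. Macrophage/dendritic-like nuclei held 7.44 ± 2.87 times and B-like nuclei 4.07 ± 1.87 times the Ciita level of SMC-like nuclei, above 1 in 6 of 6 rats. Mid-villus-like nuclei held 1.80 ± 0.31 times that level, with all 6 rats between 1.42 and 2.17. In villus-tip-like nuclei the Ciita ratio was 0.590 ± 0.279 and above 1 in 1 of 6 rats, and in Paneth-like nuclei it was 0.863 ± 0.471 and above 1 in 1 of 6. In these last 2 classes Cd74 was above the SMC-like level in every rat and Ciita was not. Against NAC-like nuclei mean Cd74 was also higher in both classes. Mean Ciita was lower, at 26.8 CPM in villus-tip-like and 41.2 CPM in Paneth-like against 51.2 CPM in NAC-like nuclei. Rat-by-rat counts are given for the SMC-like reference only.

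**Figure D2:**
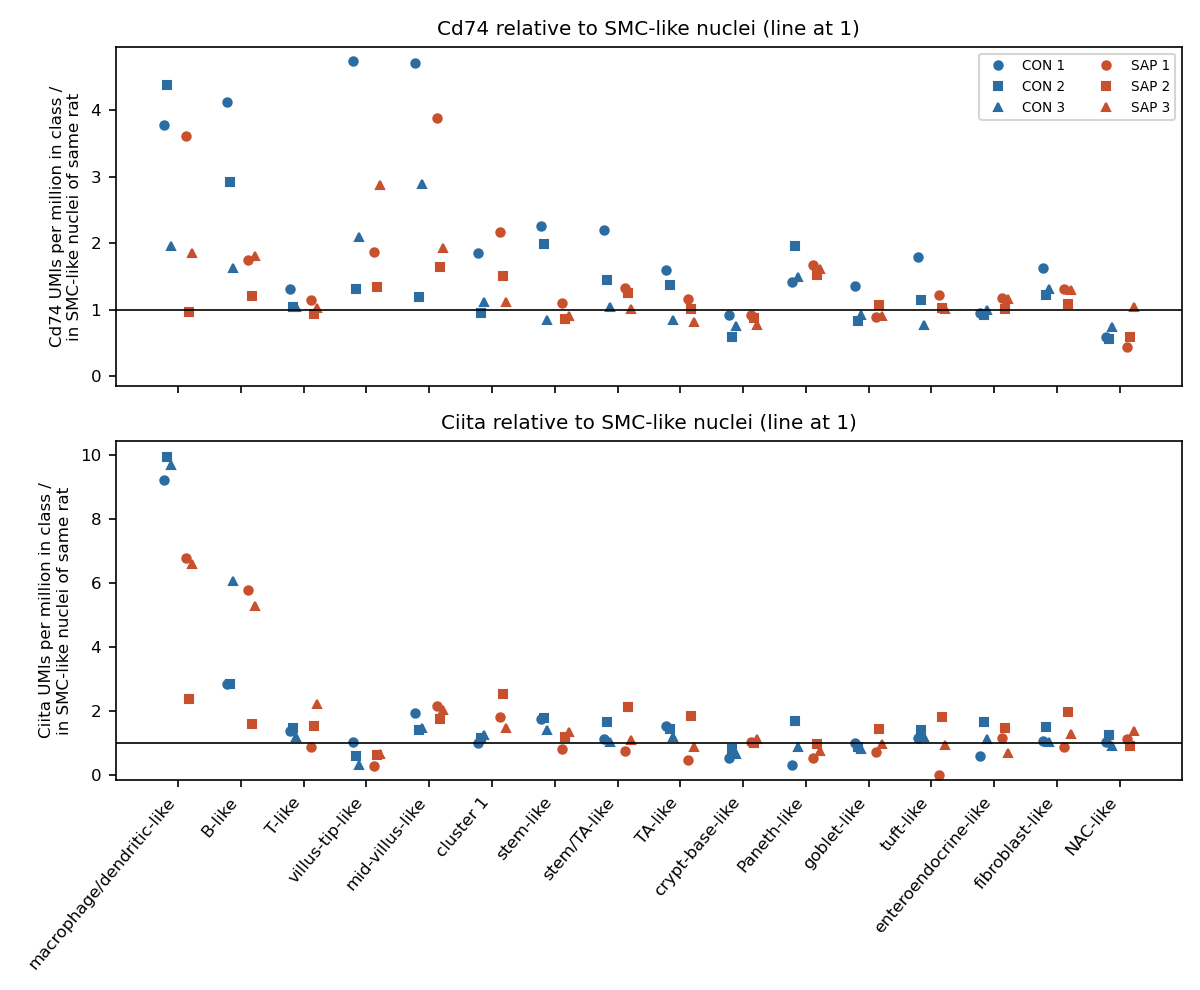
Ratio of the Cd74 (top) and Ciita (bottom) level in each class to the level in SMC-like nuclei of the same rat, with 1 point per rat, blue for CON and orange for SAP, and a line at 1. Mid-villus-like nuclei lie above the line in all 6 rats for both genes, and villus-tip-like nuclei do so for Cd74 and not for Ciita.

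The level in SMC-like nuclei, as a share of that in a named class, had a higher median for the members than for the markers of the class. The ranges overlapped for the mid-villus-like and macrophage/dendritic-like classes. Averaged with equal weight per library, enterocyte markers in SMC-like nuclei stood at 13.6% to 33.1% of their mid-villus-like level (14 genes, median 20.3%), whereas the 8 class II genes stood at 31.1% to 55.9% (median 37.1%). B cell markers stood at 6.07% to 11.7% of their B-like level (8 genes, median 9.52%) and the class II genes at 24.6% to 90.5% (median 51.5%), with Ciita the lowest. Macrophage and dendritic markers stood at 6.19% to 29.4% (11 genes, median 13.6%) and the class II genes at 14.1% to 45.1% (median 40.5%), again with Ciita the lowest. Markers were chosen for their restriction to a class and the 8 genes were not, so these ranges are given without a test.

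**Figure D3:**
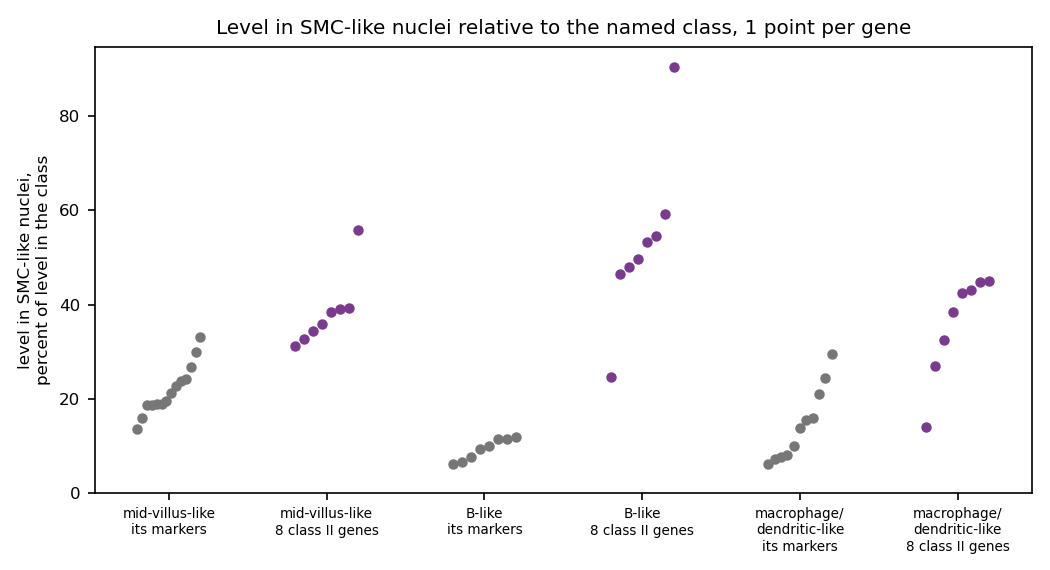
Level in SMC-like nuclei as a percentage of the level in the named class, with 1 point per gene, grey for the markers of the class and purple for the 8 class II genes. The class II points lie mostly above the markers, and the low purple points in the B-like and macrophage/dendritic-like columns are Ciita.

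The 8 genes were also counted per UMI of the B, macrophage and dendritic markers. Over the 6 rats the ratio ran from 0.699 to 5.41 in B-like, from 0.971 to 4.50 in macrophage/dendritic-like and from 1.53 to 12.6 in SMC-like nuclei. It ran from 3.81 to 67.7 in stem and TA, from 3.57 to 41.0 in villus-tip-like and from 5.05 to 70.2 in mid-villus-like nuclei. The mid-villus-like ratio was above those of both immune classes in 6 of 6 rats. Goblet-like (3.85 to 52.6), crypt-base-like (2.35 to 37.0) and NAC-like nuclei (2.69 to 22.8) were also above both in every rat. The same markers named the immune classes, so a low ratio there was built in. Stem and TA nuclei were above villus-tip-like nuclei in 3 of 6 rats. B cell markers in the epithelium were highest in SAP 3 at 229.9 CPM and in CON 3 at 81.1 CPM, whereas SAP 2, with Cd74 at 1748 CPM the highest, had 8.79 CPM. The part of immune RNA in the levels of the members was not tested. An immune marker UMI was present in 6939 epithelial nuclei, 22.1% of them. Leaving those nuclei out gave an epithelial log2 difference of Cd74 between SAP and CON of 1.49 ± 0.54 (SE) against 1.32 ± 0.54 with them.

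The comparison of SAP with CON asks how class II transcripts stood after the induction of pancreatitis. In all epithelial nuclei each of the 8 genes had a higher mean level in SAP (8 of 8, against 49.9% of all genes), and none passed the test. Cd74 was at 702, 255 and 684 CPM in CON and at 1503, 1748 and 963 CPM in SAP, without overlap on this scale. RT1-Db1, the D locus beta chain, was at 91.3, 33.2 and 165 CPM in CON and at 472, 695 and 251 CPM in SAP. Every SAP rat was again above every CON rat. RT1-Da, its alpha chain partner, was at 174, 75.7 and 202 CPM in CON and at 458, 409 and 330 CPM in SAP. RT1-Ba, the B locus alpha chain, was at 118, 59.4 and 167 CPM in CON and at 397, 342 and 212 CPM in SAP, again without overlap. RT1-Bb, the B locus beta chain, was at 16.7, 11.7 and 49.7 CPM in CON and at 163, 338 and 36.6 CPM in SAP. SAP 3 lay below CON 3 for this gene, so the groups overlapped. RT1-DMa was at 37.1, 13.7 and 32.6 CPM in CON and 88.0, 99.7 and 49.1 CPM in SAP, and RT1-DMb at 72.0, 42.6 and 69.7 CPM in CON and 132, 159 and 79.9 CPM in SAP, both without overlap. Ciita was at 31.7, 54.7 and 55.3 CPM in CON and at 37.8, 100.1 and 68.5 CPM in SAP, and its groups overlapped.

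The test was edgeR's quasi-likelihood test on counts summed per rat, with TMM scaling and Benjamini-Hochberg adjustment over 16914 genes, and a call needed an adjusted p under 0.05 with a log2 fold change of at least 0.5. It called 0 of the 8 genes and 0 of all genes (0%). Unadjusted, 6 of the 8 genes had a p under 0.05, as did 11.1% of all genes. DESeq2, run on the same 16914 genes, called 296 of them, which included 2 of the 8, RT1-Bb and RT1-Db1. The log2 fold change was 1.32 ± 0.54 (SE) for Cd74, 2.35 ± 0.65 for RT1-Db1, 2.94 ± 0.86 for RT1-Bb and 0.57 ± 0.34 for Ciita, with adjusted p of 0.439, 0.402, 0.402 and 0.560 by edgeR. The median over the 8 genes was 1.42 and over all genes -0.00. On the TMM scale 3 of 8 genes had every SAP rat above every CON rat against 6.59% of all genes, and on CPM without TMM factors 6 of 8 against 4.77%. Without CON 2 the Cd74 value was 0.93 ± 0.50, the lowest of a range of 0.93 to 1.87 over rats left out.

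The same direction ran through nearly all classes. Over the 19 classes with at least 10 nuclei in every library, 142 pairs of gene and class could be tested. A higher level in SAP was found in 140, against 50.9% of all gene and class pairs, an unadjusted p under 0.05 in 92, against 7.93%, and a call by edgeR in 0, against 0.00975%. The classes share the 6 rats and the free RNA of their libraries, so they are not independent of each other. RT1-Db1 had all SAP rats above all CON rats in 18 of 18 classes, a pattern found in 6.18% of all gene and class pairs, RT1-Ba in 14 of 18, RT1-Da in 13 of 19, Cd74 in 11 of 19 and Ciita in 2 of 18. Both pairs with a lower level were Ciita, in macrophage/dendritic-like and stem-like nuclei.

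SMC-like nuclei, the free RNA reference, had Cd74 at a log2 fold change of 1.40 ± 0.41 (edgeR, adjusted p = 0.189) and RT1-Da at 1.27 ± 0.30 (adjusted p = 0.123, the lowest over all pairs). All SAP rats lay above all CON rats for 6 of 8 genes against 8.08% of all genes in that class. In crypt-base-like nuclei, where Cd74 was not above the SMC-like level, this held for 8 of 8 genes against 6.94%, and the median log2 fold change was 1.60. In cluster 1, the unnamed epithelial cluster, the median was 1.80 and Cd74 had its highest value over the 19 classes, 1.74. The median was 0.92 in villus-tip-like nuclei. Mid-villus-like nuclei had a median of 0.92, with 1 of 8 genes without overlap against 5.99%. Their Cd74 value was 0.81 ± 0.77. Without CON 2 it was 0.28 ± 0.47, the lowest of a range of 0.28 to 1.51 over rats left out.

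B-like and macrophage/dendritic-like nuclei had lower medians, and T-like nuclei did not, at 1.28. In B-like nuclei the median log2 fold change was 0.65 and 2 of 8 genes had groups without overlap against 4.28% of all genes. In macrophage/dendritic-like nuclei the median was 0.47, with 2 of 8 genes against 4.8%. Ciita there was at -0.56 ± 0.37 (edgeR, adjusted p = 0.999), while Cd74 was at 0.80 ± 0.46. The log2 difference of Cd74 there was 1.65 for SAP 1 over CON 2 and 0.15 between the other rats. The SAP 1 level includes the nucleus with 46 Cd74 UMIs described above. These classes were small in the SAP libraries, with 26, 36 and 743 B-like and 23, 49 and 248 macrophage/dendritic-like nuclei in SAP 1, 2 and 3. The macrophage and dendritic markers summed to 641 CPM in SAP 2, where Ciita was lowest, against 1860 to 2678 CPM in the other rats. B cell markers in B-like nuclei summed to 424 to 893 CPM in CON 1, CON 2, SAP 1 and SAP 2 and to 2974 and 2869 CPM in CON 3 and SAP 3. Their part in these values was not tested.

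**Figure D4:**
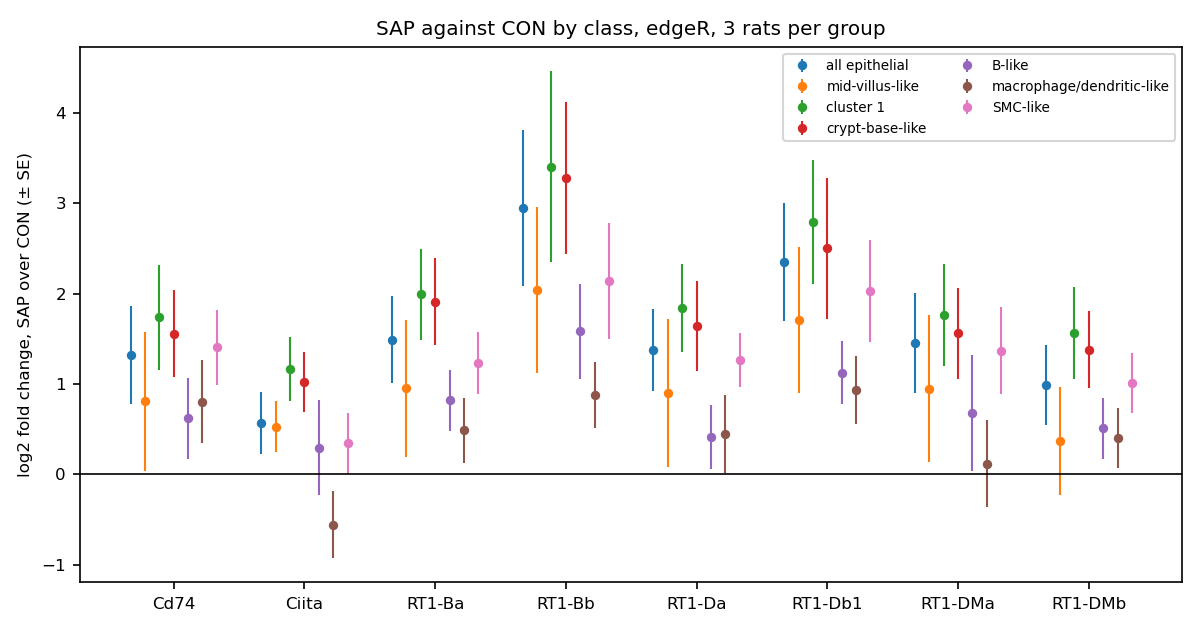
Log2 fold change of SAP over CON for each of the 8 genes in 7 classes, by edgeR with 3 rats per group, with bars of 1 standard error and a line at 0. Values lie above 0 except Ciita in macrophage/dendritic-like nuclei, and RT1-Bb and RT1-Db1 have the highest values in most classes.

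Whether SAP and CON differed by different amounts in 2 classes was tested with limma on the difference of log2 CPM between the classes within each rat. Over 6 pairs of classes 0 of 48 combinations of a member and a pair passed, as did 0% of all genes, which does not show that the classes responded alike. The epithelial value for Cd74 exceeded the SMC-like value by 0.04 ± 0.41 on the log2 scale and the macrophage/dendritic-like value by 0.86 ± 0.50 (limma, adjusted p = 0.986 and 0.921). For Ciita the epithelial value exceeded the macrophage/dendritic-like value by 1.27 ± 0.60 (limma, adjusted p = 0.921). The difference with the lowest p before adjustment was that of RT1-Da between epithelial and B-like nuclei, 1.11 ± 0.40 (limma, adjusted p = 0.995). The Cd74 ratio of epithelial to SMC-like nuclei was 1.53 ± 0.45 in CON and 1.54 ± 0.33 in SAP (exact two-sided permutation test, p = 0.8, n = 3 against 3). Transcripts of the epithelium were also present in SMC-like nuclei, so a change in the epithelium can move both parts of this ratio. A level ratio therefore cannot show whether the epithelium changed. As a difference of levels, Cd74 in the epithelium exceeded that in SMC-like nuclei by 190 ± 158 CPM in CON. In SAP it did so by 474 ± 239 CPM (p = 0.2 by the same exact permutation test).

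Counted per nucleus, after each nucleus was thinned to 1200 UMIs, Cd74 was found in 49.0%, 23.9% and 47.2% of epithelial nuclei in CON and in 71.3%, 82.7% and 61.8% in SAP. The group means were 40.0% and 72.0% (exact two-sided permutation test, p = 0.1, the smallest that 3 against 3 rats can give), and 53.3% and 82.1% without thinning. SMC-like nuclei, the free RNA reference, had a mean share of 29.6% in CON and 62.0% in SAP (49.6% and 76.0% without thinning). Median depths were 1794 UMIs in these nuclei against 1734 in the epithelium. Whether SMC-like nuclei transcribe Cd74 themselves was not tested. The difference of shares between SAP and CON was 32.0 percentage points in epithelial and 32.3 in SMC-like nuclei. For Ciita the shares of epithelial nuclei were 5.41% in the CON and 7.68% in the SAP group (p = 0.4, exact permutation test), against 3.97% and 7.08% of SMC-like nuclei. Without thinning they were 8.93% and 12.7%, against 9.76% and 12.9%. In mid-villus-like nuclei the thinned Ciita shares were 7.60% and 9.90%. Most epithelial nuclei with Cd74 held few UMIs of it. At least 5 Cd74 UMIs were held by 9.51%, 0.199% and 5.61% of mid-villus-like nuclei of the CON rats and by 28.7%, 14.7% and 6.68% of those of the SAP rats, against 0% to 3.40% in SMC-like nuclei.

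The beta and alpha chain genes did not keep a fixed proportion across rats. RT1-Bb per RT1-Ba UMI in the epithelium stood at 0.142, 0.196 and 0.299 for the CON rats and at 0.410, 0.988 and 0.173 for the SAP rats (exact two-sided permutation test, p = 0.3). SAP 2 had the highest value. It also had the highest RT1-Bb per RT1-Ba in 15 of 15 classes with at least 10 RT1-Ba UMIs in every library, at 0.585 to 1.33 against 0.0513 to 0.581 in CON, 0.228 to 0.643 in SAP 1 and 0.0961 to 0.376 in SAP 3. The ranges of SAP 1 and SAP 2 over classes overlapped. RT1-Db1 per RT1-Da stood at 0.525, 0.439 and 0.819 for the CON rats and at 1.03, 1.70 and 0.761 for the SAP rats (p = 0.2, exact permutation test), and SAP 2 was highest in 14 of 15 classes. Cd74 per RT1-Da was more even, at 3.60 ± 0.38 in CON and 3.49 ± 0.70 in SAP. Class II chain genes are highly polymorphic and these rats are outbred, and reads of RT1-Db1 may be shared with the similar copy RT1-Db2, so levels of a single chain may depend on how alleles align. The part of either in these ratios was not tested.

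**Figure D5:**
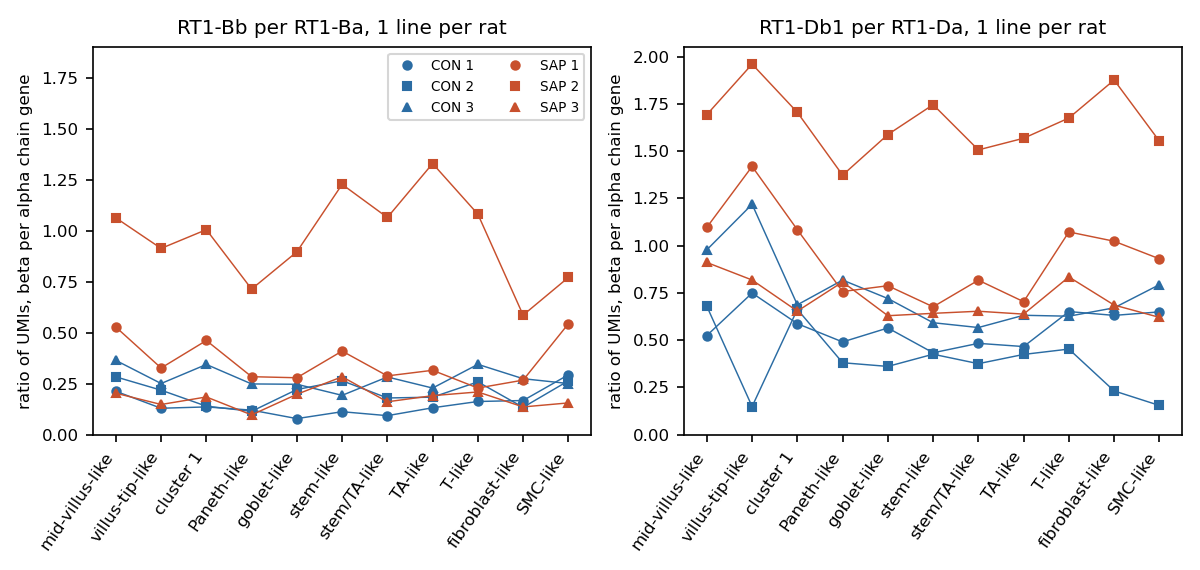
Ratio of beta to alpha chain UMIs in 11 classes for RT1-Bb per RT1-Ba (left) and RT1-Db1 per RT1-Da (right), with 1 line per rat, blue for CON and orange for SAP. The line of SAP 2 runs above those of the other 5 rats in every class shown, in both panels.

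Of 39 other genes of the pathway, 37 were in the tables and 36 could be tested in the epithelium, where 0 were called by edgeR, 24 were higher and 12 lower in SAP. The class II chain and loading genes other than the 8, such as RT1-Ha, were higher in 4 of 4, and the genes of antigen processing in 6 of 6, where 49.9% of all genes were higher. The 7 promoter factors, which include subunits of RFX and NF-Y, were lower in 7 of 7, with a median log2 fold change of -0.20. Groups that did not overlap were found for 7 genes, 5 higher and 2 lower in SAP, where 6.59% of all genes were higher and 12.4% lower without overlap. Among them Lgmn, an endosomal protease that cleaves the invariant chain, had a log2 fold change of 1.66 ± 0.40, and Socs1, an inhibitor of interferon signalling, 0.88 ± 0.38. Rfx5, the DNA-binding subunit of RFX, was at -0.75 ± 0.31. The adjusted p of these genes lay between 0.402 and 0.449 (edgeR).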

How the data were processed

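The authors used dnbc4tools to obtain UMI counts of genes in barcodes, and deposited these raw counts as 1 table per rat. The submitters' processing notes name Seurat 4.3.0 and the rat build mRatBN7.2. Totals of passing nuclei were 5549260 to 28771508 UMIs per library, and intervals and shares cover counting error only. Counts were log-normalized, integrated over libraries and clustered with scanpy 1.11.5 and leidenalg 0.10.2 (2000 variable genes without MHC genes, 30 components, 20 neighbours, resolution 0.8) under Python 3.11.15. A cluster was named where the mean log2 ratio of a marker list was at least 0.5 and led the next list by 0.4. The mid-villus score was the higher of those of the mid-villus and general enterocyte lists. Stem and TA lists that led together without that lead gave the name stem/TA-like, and macrophage/dendritic-like needed no lead. The limits of 0.5 and 0.4 were chosen with the clusters in view. Clusters that joined several classes were split again, and the class of macrophages and dendritic cells is joint. Scrublet's threshold marked 0% of nuclei, so doublets were kept, and the 5% with the highest score per library (2048) were left out as an alternative. Passing nuclei of different libraries share 195 to 746 barcode names, which are running numbers and not sequences.

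Counts were summed per rat and class and tested with edgeR 4.0.16 under R 4.3.3, and with DESeq2 1.42.0, which the study's methods use, as an alternative. Differences between classes were tested with limma 3.58.1 (prior count 1). The p-values measure the spread between 3 rats per group. The tests were tried on simulated counts first. Levels are CPM, not divided by gene length. The 8 genes and all marker and pathway lists were chosen with earlier results of these data known. Genes outside the 8 were named where their groups did not overlap (up to 5 per fit with the largest absolute change in epithelial, B-like and macrophage/dendritic-like nuclei) or where their class pattern was most like the summed 8 genes. One gene that this rule names is not reported here. Replicate numbers are shared between groups. The deviations of same-numbered rats correlated at 0.547, 0.174 and 0.533 over 19284 genes in all nuclei. In the epithelium they correlated at 0.566, 0.049 and 0.463, where the second pair is low. The tests reported above did not pair CON with SAP rats, and a block for the replicate number was run as an alternative. The labels do not say what the numbers mark. Alternatives were other scaling, no filter, DESeq2, a replicate block, each rat left out, other references for free RNA and other cell filters.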

Additional observations from a re-analysis of the deposited data

Results flagged for a closer look

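The tables of CON 2 and SAP 1 list barcodes under 1000 UMIs, 15242 and 20899 of them, which no comparison above uses and which hold free RNA and small or broken nuclei. In SAP 1 these barcodes held Cd74 at 1433 CPM and the 8 genes together at 3036 CPM. In CON 2 the same values were 252 and 552 CPM. They were picked out because they lie outside the nuclei compared and the SAP value is above the control value. Within each rat they lay close to the passing nuclei, which held Cd74 at 1424 CPM in SAP 1 and 262 CPM in CON 2, and the 8 genes at 3086 and 576 CPM. They lay above the SMC-like reference, which held Cd74 at 782 CPM in SAP 1 and 206 CPM in CON 2. Mid-villus-like nuclei held Cd74 at 3039 CPM in SAP 1, above these barcodes, and at 247 CPM in CON 2, not above them. Villus-tip-like nuclei held 0.483 times the mid-villus-like Cd74 level in SAP 1 and 1.10 times in CON 2, close to these barcodes. Paneth-like nuclei were not set against them. Which of the 2 references lies nearer to free RNA was not tested. Ciita in these barcodes was at 29.9 CPM in SAP 1 and 48.7 CPM in CON 2. This is 1 rat of each group, so the difference has no replicate check.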

How the results depend on the processing

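In all epithelial nuclei 0 of 8 genes were called under every setting run except DESeq2. It called 2, RT1-Bb at 2.96 and RT1-Db1 at 2.37 (log2), and its calls over all genes are given above. Over the 19 classes 40 of 152 pairs of gene and class were called with no filter on low counts (0.644% of all pairs) and 29 of 142 with DESeq2 (0.467%), 4 of 143 without CON 3 (0.163%) and 6 of 142 without SAP 3 (0.141%), so that leaving out 1 rat gave 0 to 6; the cause was not tested. The replicate block called 0 of the 8 genes in the epithelium, 0 over the classes and 0 of the differences between classes, and changed no other call. Directions turned, for values that were not called, for RT1-DMb in mid-villus-like nuclei without CON 2 (-0.085, range over rats left out -0.085 to 1.08), for Ciita in B-like nuclei without SAP 3 (-0.34, range -0.34 to 1.11) and for RT1-DMa in macrophage/dendritic-like nuclei without SAP 1 (-0.23, range -0.23 to 0.26). Without TMM factors 6 in place of 3 genes had groups without overlap in the epithelium.

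The reference for free RNA moved the ratios. Against NAC-like nuclei Cd74 was at 2.55 in all epithelial, 3.72 in villus-tip-like, 4.54 in mid-villus-like, 2.47 in cluster 1, 2.17 in stem and TA, 1.32 in crypt-base-like, 2.62 in Paneth-like and 1.62 in goblet-like nuclei. Against fibroblast-like nuclei it was at 1.17 in all epithelial, 0.621 in crypt-base-like, 1.25 in Paneth-like and 0.767 in goblet-like nuclei. NAC-like nuclei numbered 19, 27 and 104 in CON and 10, 19 and 133 in SAP. Ratios to them therefore rest on few UMIs in the smaller libraries and are means without a spread. Without nuclei that held an immune marker UMI the Ciita ratio to SMC-like nuclei was 1.53 in all epithelial, 2.21 in mid-villus-like and 1.37 in Paneth-like nuclei. Between the tables that list low barcodes (SAP 1 over CON 2) the epithelial log2 difference of Cd74 was 2.56 and of Ciita -0.52, and between the other 4 it was 0.97 and 0.94. Small classes, down to 10 nuclei in a library, limit what the tests within them can show.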

Other observations

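Genes whose levels over classes were most like the summed 8 genes were Fuca1 (Pearson r = 0.860 over the means of 19 classes), Ctss (0.851), Napsa (0.811), Acadl (0.793) and Tpm3 (0.790), of 12717 genes with at least 20 CPM in a class. Ctss encodes cathepsin S, an endosomal protease that degrades the invariant chain, and was highest in mid-villus-like nuclei at 376 CPM and lowest in NAC-like nuclei at 92.4 CPM. Ciita itself had r = 0.586. Over the 11 epithelial classes alone the nearest genes were Slc25a3 (0.966), Itm2b (0.960), Fuca1 (0.949), Slc39a4 (0.948) and Smim24 (0.947), while Cd74 had 0.995 and Ciita 0.149. Each of the 8 genes is part of the sum. In mid-villus-like nuclei Cd74 gave 1652 and Ciita 82.9 of 3658 CPM. The r of Cd74 is therefore high through its weight, and the 2 values cannot be compared as class patterns. The classes share libraries and free RNA, and these correlations describe the class means only.

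Of all Cd74 UMIs in passing nuclei, 19.5% lay in mid-villus-like nuclei, which were 9.0% of nuclei, and 2.66% in macrophage/dendritic-like nuclei, which were 1.89%. The whole epithelium held 76.7% of Cd74 UMIs and 76.7% of nuclei. Of all Ciita UMIs, 12.2% lay in mid-villus-like, 9.46% in macrophage/dendritic-like and 10.4% in B-like nuclei, the last being 2.96% of nuclei.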
